A study of Homo sapiens with 16 samples.

Results

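The 2 libraries described here hold RNA that was pulled down with the RNA-induced silencing complex (RISC) from HEK 293 cells, a human embryonic kidney cell line, in the presence of the microRNA mir3613-5p. They were chosen by their label alone, out of 16 libraries in the series, and were compared with the 10 libraries of the 5 other miRNAs that have 2 libraries each. Those are mir550-3p, mir1301-3p, mir1271-5p, mir1260a-5p and mir1180-3p, each pulled down from the same cell line by the same RISC trap method. The 4 libraries of mir124-3p, sequenced partly on another platform, were left out. No library without an added miRNA is named in the labels, so every difference below is between mir3613-5p and the mean of the 5 other miRNAs, and a gene recovered equally with all 6 does not show. The labels give neither the dose of a miRNA nor whether the second library of a miRNA came from a separate culture, so p-values measure only the spread between libraries, which may be technical.

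A miRNA guides an Argonaute protein to messenger RNAs that pair with it, mostly through bases 2 to 8 of the miRNA, the seed. Argonaute then recruits a GW182 protein (TNRC6A, TNRC6B or TNRC6C), which brings in the enzymes that shorten the poly(A) tail and remove the cap. In a RISC trap, a dominant-negative fragment of GW182 holds the complex of Argonaute, miRNA and target before decay, and the bound mRNAs are then precipitated and sequenced. A target of the added miRNA is thus looked for among mRNAs that are more abundant in its own pull-down than in those of other miRNAs.

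The mature sequences are shown because the seed sets which mRNAs a miRNA can pair with, and because that of mir3613-5p is unlike the others beyond its seed. They are those of RefSeq on GRCh38.p14, written 5′ to 3′ with the seed in capitals, the name mir550-3p was read as miR-550a-3p from the name of its data column, and mir1260a-5p was taken as RefSeq's single mature miR-1260a, which carries no 5p label.
mir3613-5p: uGUUGUACuuuuuuuuuuguuc
mir1180-3p: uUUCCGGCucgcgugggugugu
mir1260a-5p: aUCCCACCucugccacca
mir1271-5p: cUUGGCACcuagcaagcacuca
mir1301-3p: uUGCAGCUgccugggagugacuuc
mir550-3p: uGUCUUACucccucaggcacau
The mir3613-5p sequence lies on the minus strand at chr13:49996465-49996486, in the gene MIR3613 and within the span of DLEU2, a long non-coding RNA gene. Of its 22 bases, 16 are U (72.7%), with a run of 10 U directly after the seed. In the other 5 miRNAs the U share was 16.7% to 36.4%, and the longest U run was 3. G and C made up 22.7% of mir3613-5p and at least 50% of each of the others. None of the other 5 shared its seed or its bases 2 to 7. The seed of mir550-3p matched it at 5 of 7 positions, that of mir1271-5p at 4, that of mir1180-3p at 2, that of mir1260a-5p at 1 and that of mir1301-3p at 0.

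The mir3613-5p libraries held 13500185 and 11299759 counts in genes, and the other 10 held 7612758 to 17972321. A gene with 0 counts could have a level of up to 0.222 and 0.265 CPM (read counts scaled to library size) in the mir3613-5p libraries and up to 0.394 CPM in the shallowest of the others, from counting error alone. The 10 typical HEK 293 genes summed to 1702 and 2082 CPM with mir3613-5p and to 1153 to 2341 CPM with the others. Most of the mir3613-5p sums came from VIM (752 and 971 CPM by library size alone) and NEFL (529 and 719 CPM). On that list, 2 genes averaged under 5 CPM. KRT8, a keratin, averaged 0.730 CPM with mir3613-5p and 1.39 CPM with the others. PAX2 was at 1.41 and 7.26 CPM with mir3613-5p, by library size alone. Similar sums show only that the libraries were alike in these genes, and the identity of the cell line was not tested. The 2 libraries of mir3613-5p were not each other's nearest. Across the 17658 genes tested, the deviations of each library from the mean of the 6 miRNAs (log2 CPM) correlated at r = 0.178 between the 2 mir3613-5p libraries. Replicate 1 correlated better with replicate 1 of mir1271-5p (r = 0.384), and replicate 2 better with replicate 2 of mir1260a-5p (r = 0.377). The lowest correlation of mir3613-5p replicate 1 was with mir1301-3p replicate 2 (r = -0.50), and that of replicate 2 with mir1180-3p replicate 2 (r = -0.42). The libraries of mir1301-3p (r = 0.603) and of mir550-3p (r = 0.419) were each closest to their own replicate. These correlations are across genes, which are not independent, and describe the libraries only.

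**Figure D1:**
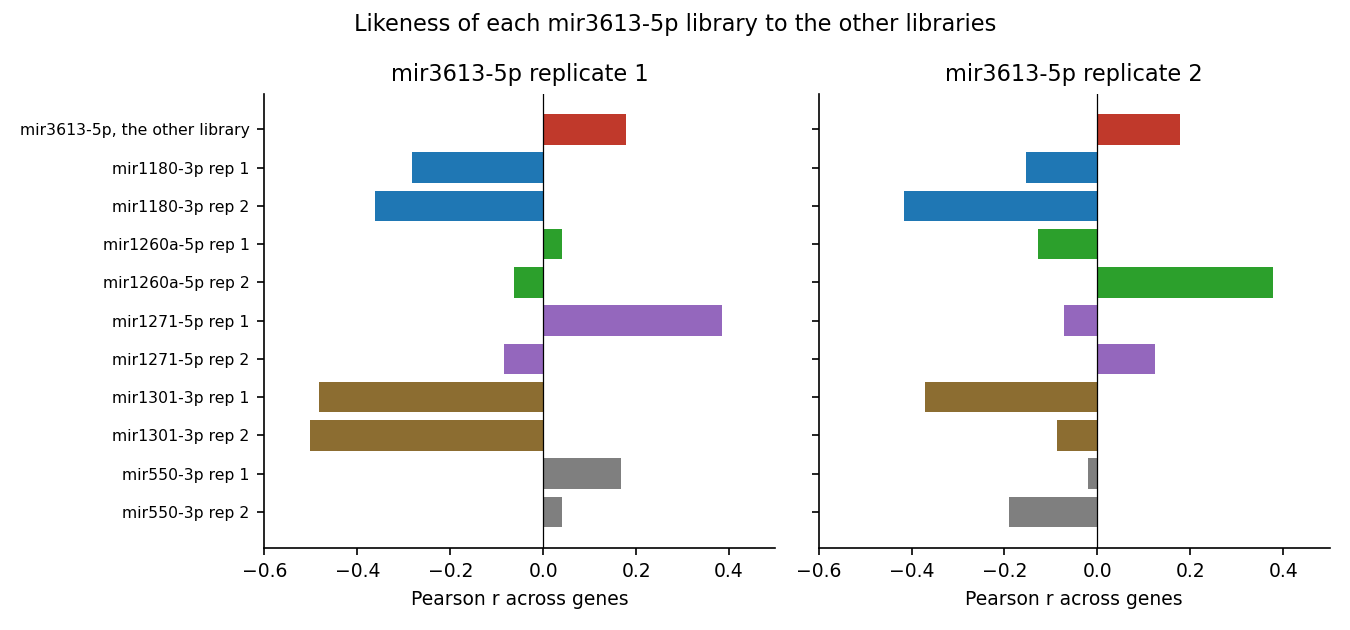
Pearson correlation of the mir3613-5p libraries with each other and with the libraries of the 5 other miRNAs, across 17658 genes. It was computed on log2 CPM minus the mean of the 6 miRNAs. The 2 mir3613-5p libraries correlate at 0.18, less than each does with 1 library of another miRNA.

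mRNAs of 16 genes were recovered at a higher level with mir3613-5p than with the other 5 miRNAs, and none at a lower level (edgeR quasi-likelihood test, Benjamini-Hochberg adjusted p under 0.05). The 16 are 0.0906% of the 17658 genes tested. They include PATL1, a decapping scaffold; TIMM10, a mitochondrial import chaperone; the transcription factors PLAGL1, PITX1 and GATA2; and CPLX1, CAMK2N2 and RCAN2, which act in vesicle release and calcium signalling. Fold changes ran from 2.82 for GATA2 to 10.7 for PCDHB14. Without adjustment, 1436 genes were higher (8.13%) and 1045 lower (5.92%) at p under 0.05. DESeq2 on the same counts called 88 genes higher (0.498%), among them all 16, and 32 lower (0.181%).

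In 13 of the 16 genes both mir3613-5p libraries lay above all 10 others, an ordering found for 3.00% of all genes tested. The 16 were selected by a test on these same values, so the ordering is no separate support for them. The mean of mir3613-5p was the highest of the 6 miRNA means for all 16. Replicate 1 was the higher of the 2 libraries for 7 genes and replicate 2 for 9.

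**Figure D2:**
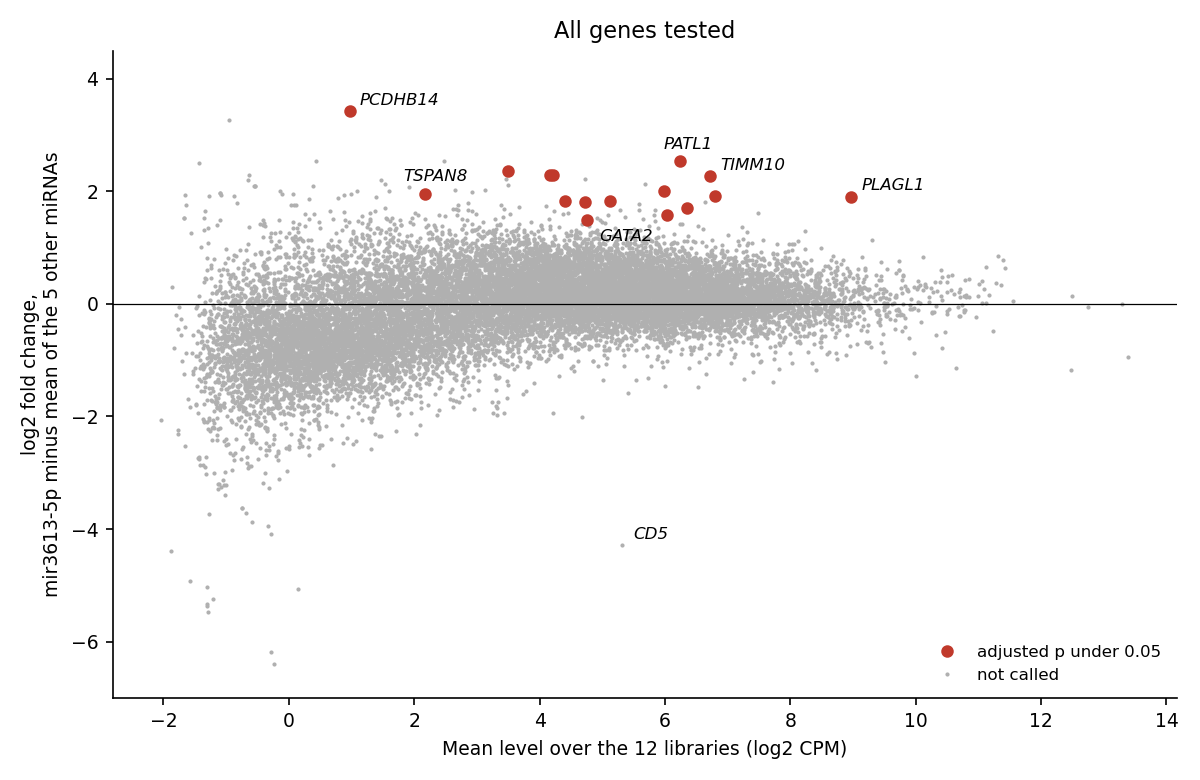
Log2 fold change of mir3613-5p over the mean of the 5 other miRNAs (y axis) against the mean level over the 12 libraries (x axis, log2 CPM) for all genes tested. The 16 called genes (red) lie above 0 and mostly at middle and high levels, and CD5 is the lowest labelled point, not called.

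PATL1 links the decapping enzyme to its activators in P bodies, cytoplasmic granules in which mRNAs are stored and decayed. Its level was 151 and 335 CPM with mir3613-5p, against 28.8 to 58.7 CPM (median 42.7) in the other 10 libraries, where CPM are scaled by edgeR's TMM factors here and below. Both mir3613-5p libraries thus stood well clear of all others, although replicate 2 was far above replicate 1. The means were 243 ± 130.1 CPM with mir3613-5p (SD, n = 2) and 42.3 ± 9.46 CPM with the others (SD, n = 10). The difference on the log2 scale was 2.54 ± 0.27 (SE; adjusted p = 0.000588, edgeR). PATL1 had the smallest adjusted p of all genes. The next highest miRNA was mir1271-5p at a mean of 50.4 CPM. Without replicate 2 the log2 fold change was 1.83 and the call was lost.

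TIMM10 forms, with TIMM9, the chaperone that carries hydrophobic proteins through the space between the mitochondrial membranes. It stood at 350.3 and 256 CPM with mir3613-5p, against 34.5 to 123 CPM (median 57.6) in the other libraries. The groups did not overlap, and the highest of the others was mir550-3p replicate 1. The log2 fold change was 2.27 ± 0.28 (adjusted p = 0.0013, edgeR); without replicate 1 it was 2.02 and no longer called. NUDT16L1, also called TIRR, binds the DNA repair protein 53BP1. It was at 283 and 225 CPM with mir3613-5p, against 32.2 to 216 CPM (median 56.3). The top of that range was mir1271-5p alone, at 216 and 213 CPM, while the 8 libraries of the other miRNAs stayed at or below 65.5 CPM. The log2 fold change was 1.92 ± 0.26 against the mean of the 5 miRNAs (adjusted p = 0.00309, edgeR) and 0.24 against mir1271-5p alone, which was not called. Without mir3613-5p replicate 1 it was 1.73, also not called.

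The 3 transcription factors differed in how even their 2 libraries were. PLAGL1, an imprinted zinc finger factor that can arrest the cell cycle, was at 1189 and 1266 CPM with mir3613-5p, against 193 to 747 CPM (median 292) in the others. Its 2 mir3613-5p libraries were close, and mir1271-5p was again next, at 747 and 566 CPM. The log2 fold change was 1.91 ± 0.22 (adjusted p = 0.0008, edgeR) and lay between 1.84 and 1.96 when any 1 of the 12 libraries was left out. PLAGL1 was the only gene of the 16 called from either mir3613-5p library alone, but against mir1271-5p alone the fold change, 0.90 on the log2 scale, was not called.

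PITX1, a homeobox factor of hindlimb and pituitary development, was at 111 and 220.4 CPM with mir3613-5p, against 21.6 to 81.0 CPM (median 42.4) in the others. The groups did not overlap, and mir1260a-5p replicate 2 was the highest of the others. The log2 fold change, 2.0 ± 0.33 (adjusted p = 0.019, edgeR), was 1.40 and not called without mir3613-5p replicate 2. It was 1.93 and not called without replicate 2 of mir1180-3p, and 1.93 and not called without replicate 2 of mir550-3p. GATA2, a factor of blood stem cells and of some neurons, was at 58.4 and 56.5 CPM with mir3613-5p, against 11.1 to 27.2 CPM (median 19.9). Its 2 libraries were nearly equal, yet with a log2 fold change of 1.49 ± 0.27 (adjusted p = 0.0376, edgeR) it was the gene of the 16 called under the fewest alternatives, 8 of 31. Leaving out either mir3613-5p library, either library of mir1180-3p or mir550-3p, or replicate 1 of mir1260a-5p or mir1301-3p ended the call, with log2 fold changes of 1.46 to 1.54.

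Of the genes that act in vesicle release and calcium signalling, CPLX1 (complexin) binds the SNARE complex that drives vesicle fusion. CPLX1 was at 39.4 and 67.6 CPM with mir3613-5p, against 4.29 to 24.8 CPM (median 10.6), with mir1301-3p replicate 2 the highest of the others. This was a log2 fold change of 2.29 ± 0.36 (adjusted p = 0.0142, edgeR). RCAN2, an inhibitor of the calcium-dependent phosphatase calcineurin, was at 33.6 and 64.0 CPM with mir3613-5p, against 4.12 to 27.1 CPM (median 11.0), with a log2 fold change of 2.28 ± 0.34 (adjusted p = 0.00665, edgeR). CAMK2N2, an inhibitor of the calcium/calmodulin-dependent kinase CaMKII, was at 48.6 and 82.7 CPM, against 12.1 to 25.5 CPM (median 19.1), with a log2 fold change of 1.82 ± 0.30 (adjusted p = 0.0165, edgeR). In these 3 genes no library of another miRNA reached the lower mir3613-5p value, and replicate 2 was the higher one each time. Without replicate 2 none of the 3 was called, at log2 fold changes of 1.83 for CPLX1, 1.73 for RCAN2 and 1.36 for CAMK2N2. CAMK2N2 was also not called without replicate 2 of mir1180-3p (1.75) or without replicate 2 of mir550-3p (1.79). NDRG4, a cytoplasmic protein of brain and heart, showed the opposite order, at 103 and 69.5 CPM with mir3613-5p, against 14.8 to 34.8 CPM (median 23.6). Its log2 fold change of 1.83 ± 0.30 (adjusted p = 0.015, edgeR) was 1.51 without mir3613-5p replicate 1, 2.06 without replicate 2 and 1.80 without mir1180-3p replicate 2, and not called in any of these.

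DCUN1D1 helps attach NEDD8 to cullins, the scaffolds of a class of ubiquitin ligases. It stood at 189 and 192 CPM with mir3613-5p, against 37.8 to 98.0 CPM (median 59.5) in the others, and mir550-3p replicate 1 was the highest of those. DCUN1D1 had a log2 fold change of 1.71 ± 0.25 (adjusted p = 0.00665, edgeR); it was 1.71 without mir3613-5p replicate 1 and 1.67 without replicate 2, and not called in either. RRAS2 is a small GTPase related to RAS that feeds the PI3K and ERK pathways. RRAS2 was at 166 and 126 CPM with mir3613-5p, against 29.9 to 66.2 CPM (median 51.7), again without overlap. Its log2 fold change was 1.59 ± 0.25 (adjusted p = 0.015, edgeR). It was not called without mir3613-5p replicate 1 (1.37), without replicate 2 (1.75) or without mir550-3p replicate 2 (1.57).

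The other 4 called genes were low or overlapped with the other libraries, and are named after their values were seen. PCDHB14 is a clustered protocadherin, a neuronal adhesion protein with near-identical neighbours, so that reads may be shared among copies. It had 163 and 22 counts with mir3613-5p, against 2 to 23 counts in each of the others. The level was 12.8 and 1.98 CPM with mir3613-5p, against 0.245 to 2.39 CPM, so replicate 2 lay below both mir1301-3p libraries (2.39 and 2.08 CPM). Its log2 fold change of 3.42 ± 0.47 (adjusted p = 0.0039, edgeR) was 1.51 and not called without replicate 1. TSPAN8, a tetraspanin membrane protein, was at 7.70 and 12.6 CPM with mir3613-5p, against 0.652 to 7.30 CPM. Its groups were separated by a narrow margin (log2 fold change 1.96 ± 0.36, adjusted p = 0.0394, edgeR).

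GPR35, a G protein-coupled receptor, was at 29.9 and 24.2 CPM with mir3613-5p, against 0.394 to 25.6 CPM in the others. Replicate 2 of mir1260a-5p, at 25.6 CPM, stood between the 2 mir3613-5p libraries, while the mir550-3p libraries held only 0.394 and 0.864 CPM. The log2 fold change was 2.37 ± 0.41 against the mean of the 5 (adjusted p = 0.0244, edgeR), 0.73 against mir1260a-5p alone and 5.38 against mir550-3p alone. TRIM58, a ubiquitin ligase of red cell precursors, was at 30.7 and 54.2 CPM with mir3613-5p, against 1.73 to 37.5 CPM. Replicate 2 of mir1260a-5p (37.5 CPM) and replicate 1 of mir1301-3p (33.4 CPM) lay above the lower mir3613-5p library. TRIM58 had a log2 fold change of 1.84 ± 0.34 against the mean of the 5 (adjusted p = 0.0394, edgeR), and 4.35 against mir550-3p alone, in which it was at 1.73 and 2.39 CPM. GPR35 was not called without mir3613-5p replicate 1 (2.20), without replicate 2 (2.5), or without mir1180-3p replicate 2, mir1271-5p replicate 1 or either mir550-3p library (2.26 to 2.51). TSPAN8 and TRIM58 were likewise not called without either mir3613-5p library, at 2.26 and 1.54 for TSPAN8 and 2.18 and 1.35 for TRIM58. TSPAN8 also lost its call without any 1 of 7 other libraries (1.92 to 2.01), all but those of mir1271-5p and replicate 2 of mir1260a-5p. TRIM58 lost it without either mir550-3p library, without mir1180-3p replicate 2, or without replicate 1 of mir1260a-5p, mir1271-5p or mir1301-3p (1.74 to 1.89).

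**Figure D3:**
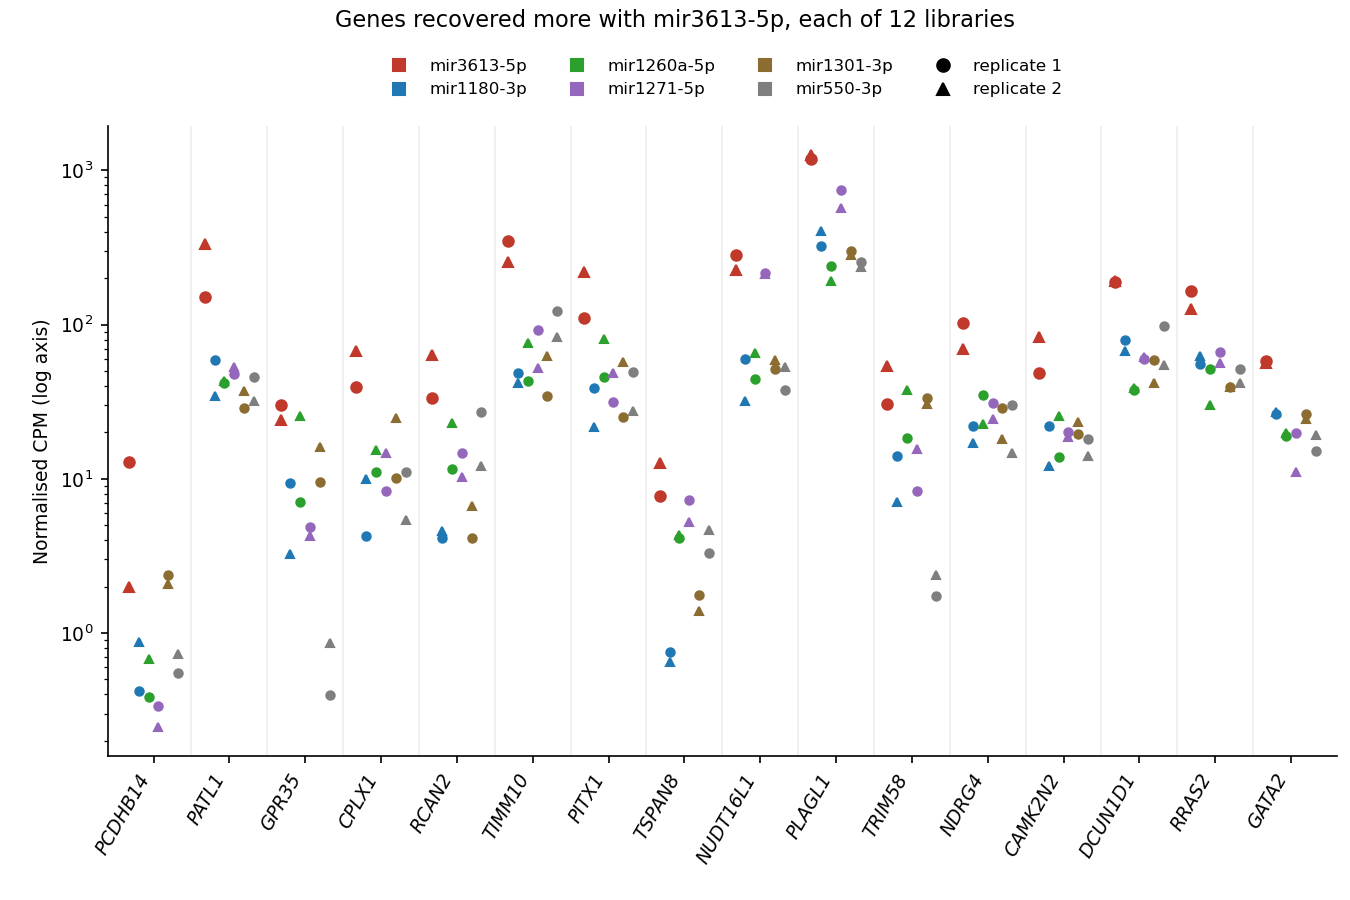
Level of the 16 called genes in each of the 12 libraries (log axis, CPM), with mir3613-5p leftmost in each gene and 1 point per library. In 13 genes both mir3613-5p points lie above all others; in PCDHB14, GPR35 and TRIM58 they overlap with them.

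The set of called genes depended on which libraries entered the comparison. All 16 log2 fold changes stayed above 0 under all 31 alternatives in which the gene was tested, but the calls did not stay. The genes were chosen as higher in these same libraries, and mir3613-5p had the highest miRNA mean for each. The constant sign thus largely follows from the choice and is no separate support. PLAGL1 was called under 30 alternatives, PATL1 under 28, TIMM10 and NUDT16L1 under 27 each and RCAN2 under 26, against 15 for GPR35, 11 for TRIM58, 9 for TSPAN8 and 8 for GATA2. Without mir3613-5p replicate 1, 6 of the 16 were called (PATL1, CPLX1, RCAN2, PITX1, PLAGL1 and CAMK2N2), and without replicate 2, 4 were (PCDHB14, TIMM10, NUDT16L1 and PLAGL1). In those fits the remaining library is assumed to vary like the libraries of the other miRNAs. Leaving out any 1 of the other 10 libraries kept the call of 8 genes, namely PATL1, PLAGL1, TIMM10, NUDT16L1, PCDHB14, RCAN2, DCUN1D1 and CPLX1.

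Scaling and the choice of the other miRNAs also moved the calls. With upper-quartile scaling 9 genes were higher (0.0510% of those tested), all among the 16, and CPLX1 (log2 fold change 2.13), PITX1 (1.85), CAMK2N2 (1.66), GPR35, TSPAN8, TRIM58 and GATA2 were not called. Against mir1180-3p, mir1260a-5p and mir1271-5p, whose libraries are labelled in the same style as those of mir3613-5p, 7 genes were higher (0.0417%). NUDT16L1, at a log2 fold change of 1.62, was not among them. Against mir1301-3p and mir550-3p, 53 genes were higher (0.303%) and 9 lower (0.0514%), with 13 of the 16 among the 53. When mir1180-3p was left out, RCAN2 (1.96), PITX1, TSPAN8, TRIM58, NDRG4 and GATA2 were not called. Without mir550-3p this held for GPR35, PITX1, TSPAN8, TRIM58, CAMK2N2, RRAS2 and GATA2, without mir1271-5p for GPR35, TRIM58 and GATA2, without mir1260a-5p for TSPAN8 and GATA2, and without mir1301-3p for TSPAN8.

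Against a single miRNA the count of called genes varied widely. Against mir1301-3p, 413 genes were called higher and 705 lower. Against mir1180-3p they were 64 and 142. Against mir550-3p they were 19 and 8. Against mir1260a-5p, 1 gene was called higher and 2 lower, and against mir1271-5p, 0 higher and 1 lower (edgeR; 1141 genes at unadjusted p under 0.05). Of the 16 genes, 11 were called against mir1301-3p alone, 11 against mir1180-3p alone, 5 against mir550-3p alone, 1 against mir1260a-5p alone and 0 against mir1271-5p alone. These single comparisons share the mir3613-5p libraries.

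**Figure D4:**
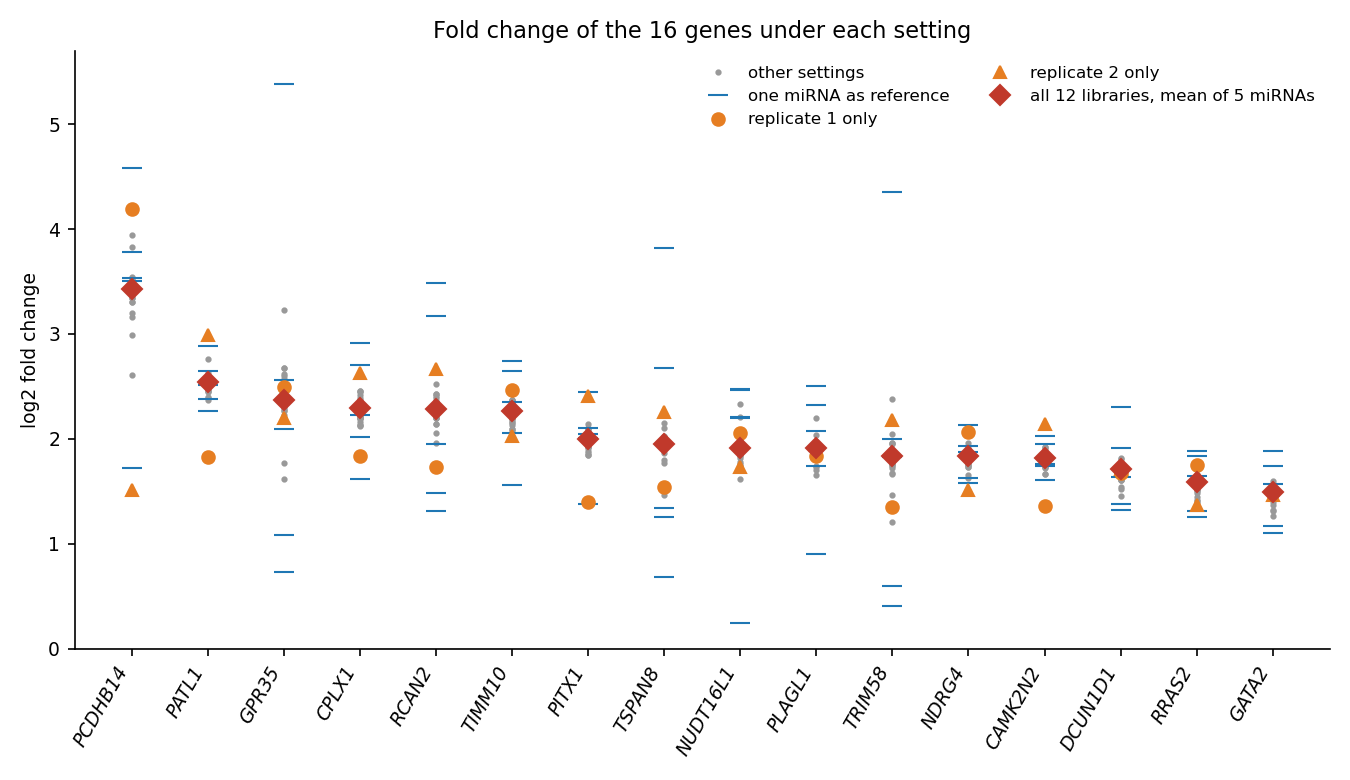
Log2 fold change (y axis) of each of the 16 called genes (x axis) with all 12 libraries (red), with 1 mir3613-5p library (orange), against 1 miRNA alone (blue dashes) and under the other settings (grey). Every point lies above 0, with the widest spread in GPR35 (0.73 to 5.38), TRIM58 (0.41 to 4.35) and TSPAN8 (0.68 to 3.82). The genes were chosen as higher in these same libraries.

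None of the 7 genes of the silencing complex was called, beside 16 of all 17658 genes tested (0.0906%). TNRC6A, a GW182 protein, was at 9364 and 10023 CPM with mir3613-5p, against 6310 to 16603 CPM in the others, where both mir550-3p libraries were the highest. Its log2 fold change was 0.01 (adjusted p = 0.993, edgeR). Whether reads of the trap construct are among its counts was not tested. The Argonaute genes, which hold the miRNA, had log2 fold changes of 0.00 for AGO1, -0.02 for AGO2, 0.00 for AGO3 and 0.24 for AGO4. AGO2, the Argonaute that can cut its target, was at 26.2 and 53.4 CPM with mir3613-5p, inside the 25.8 to 59.6 CPM of the others. TNRC6B was at 185 and 271 CPM with mir3613-5p, against 92.4 to 270.1 CPM (log2 fold change 0.25). TNRC6C was at 68.4 and 154 CPM with mir3613-5p, against 61.0 to 150.4 CPM (0.36). For these 2, replicate 2 exceeded all others and replicate 1 fell within their range.

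Of 30 gene lists on pathways, complexes and cell types, 2 held a gene called by edgeR. In the list of mRNA decapping and deadenylation, 1 of 39 genes was called, PATL1, and the median log2 fold change was 0.13. In the list of RAS-ERK signalling and its inhibitors, 1 of 38 tested genes was called, RRAS2, with a median of 0.12. Over all genes tested, 16 of 17658 were called (0.0906%), and the median was 0.01. The medians of 23 of the 30 lists were above 0, but only 8 were after upper-quartile scaling, which moved the median of all genes by -0.19, and 17 were without either 1 of the mir3613-5p libraries. None of the lists below held a gene called by edgeR, and their members are given by value. DESeq2 did call some of their members. Among these were AXIN1 (log2 fold change 1.28, adjusted p = 0.0441, DESeq2) and MRPS11 (1.08, adjusted p = 0.0432), both higher. RHEB was called lower (-1.19, adjusted p = 0.0253). Of all genes tested, DESeq2 called 0.498% higher and 0.181% lower.

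The p53 targets had the highest list median, 0.41. It was 0.36 in replicate 1 and 0.43 in replicate 2, and 0.23 after upper-quartile scaling. Of the 24 members 19 were above 0, beside 9002 of all 17658 genes tested. All but 1 of the members averaged at least 5 CPM. Of all genes tested, 65.1% of those from 5 to 50 CPM and 63.2% of those over 50 CPM were above 0. CDKN1A, the cell-cycle inhibitor p21, was at 236 and 377 CPM with mir3613-5p, against 41.0 to 229 CPM (log2 fold change 1.28, adjusted p = 0.228, edgeR). BAX, a pore-forming cell death protein, was at 65.9 and 89.1 CPM with mir3613-5p, against 13.2 to 77.1 CPM (1.08, adjusted p = 0.233). The other list medians that kept their sign under all 31 alternatives were those of the Wnt pathway (0.26), of PI3K, mTOR and autophagy control (0.20) and of collagen chains (-0.24). After upper-quartile scaling they were 0.07, 0.01 and -0.44. Of the 43 collagen chains tested, 20 averaged under 5 CPM, as did 8 of the 41 Wnt genes and 1 of the 44 PI3K and mTOR genes. Over all genes tested, those from 1 to 5 CPM had a median of -0.44 and those under 1 CPM one of -0.78. Those from 5 to 50 CPM had a median of 0.18 and those over 50 CPM one of 0.12. The part of level in these list medians was not tested. In the Wnt list, AXIN1, a scaffold of the beta-catenin destruction complex, was at 63.8 and 93.3 CPM with mir3613-5p, against 12.4 to 76.2 CPM (1.29). In the PI3K and mTOR list, RHEB, the GTPase that activates mTOR complex 1, was at 85.7 and 78.6 CPM with mir3613-5p, against 72.1 to 939 CPM (-1.16). The top of that range was mir1301-3p alone, at 939 and 539 CPM, while the libraries of the other miRNAs stayed at or below 179 CPM. RHEB was the 1 gene of the 44 on its list that was lower at unadjusted p under 0.05 (edgeR), and 8 were higher. Over all genes tested, 5.92% were lower and 8.13% higher.

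The lists of energy and protein supply had medians of 0.24 for oxidative phosphorylation subunits and 0.25 for mitochondrial ribosomal proteins. After upper-quartile scaling these were 0.07 and 0.08, and against mir550-3p alone they were -0.12 and -0.27. No member of either list averaged under 5 CPM. Over all genes tested, those from 5 to 50 CPM had a median of 0.18 and those over 50 CPM one of 0.12. The part of level in the 2 list medians was not tested. MRPS11 was at 64.8 and 83.5 CPM with mir3613-5p, against 19.6 to 51.4 CPM (log2 fold change 1.10, adjusted p = 0.176, edgeR). MRPL11 was at 311 and 469 CPM with mir3613-5p, against 108 to 269 CPM (1.06). Both are subunits of the mitochondrial ribosome, and in neither did the groups overlap. Of the 76 genes of that list, 5 lay above all 10 others in both mir3613-5p libraries (6.58%) and 1 lay below (1.32%). Over all genes tested the shares were 3.00% and 2.32%. The replication-dependent histones split the 2 libraries, with medians of -0.30 in replicate 1 and 0.61 in replicate 2. The G1/S list did so in the other direction, at 0.42 and -0.10, and the unfolded protein response at 0.53 and -0.12. In these 3 lists no direction holds for both libraries.

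Genes of low level were mostly below the other miRNAs and genes of middle level mostly above. Of the 1721 genes under 1 CPM on average, 16.3% had a positive log2 fold change, with a median of -0.78. For the 4348 genes from 1 to 5 CPM the median was -0.44, for the 6949 from 5 to 50 CPM it was 0.18 and for the 4640 over 50 CPM it was 0.12. In the same order, 29.1%, 65.1% and 63.2% of the genes had a positive log2 fold change. Over 50 CPM replicate 1 had a median of 0.26 and replicate 2 one of -0.02. The shift of -0.19 from upper-quartile scaling is larger in size than the medians of both upper classes. Fewer genes had any count in the mir3613-5p libraries (18308 and 18468) than in most others (18436 to 18781). Of the tested blood cell markers 11 of 13 averaged under 5 CPM, of the fibroblast and mesenchyme markers 8 of 14, and of the liver and keratinocyte markers 7 of 8. The blood cell markers had a median of -0.58, with 4 of 13 tested genes above 0. Their summed level was 27.7 and 46.7 CPM with mir3613-5p, against 23.7 to 57.6 CPM. Of the markers too low to be tested, before TMM scaling, HBA2 was at 0 in both mir3613-5p libraries, against 0 to 1.76 CPM in the others, and HBB at 3.11 and 0.531 CPM, against 0 to 0.801 CPM. The fibroblast and mesenchyme markers had a median of -0.57, with 2 of 14 above 0, and summed to 33.2 and 45.4 CPM with mir3613-5p, against 30.9 to 216 CPM. The liver and keratinocyte markers summed to 155.1 and 155.1 CPM, against 143 to 212 CPM, nearly all of it KRT10, a keratin at a mean of 144 CPM with mir3613-5p and 156 CPM with the others. The neuron and glia markers summed to 144 and 111 CPM, against 93.7 to 159 CPM. For all 4 lists the sums in the mir3613-5p libraries lay inside the range of the others, and their part in the results was not tested.

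**Figure D5:**
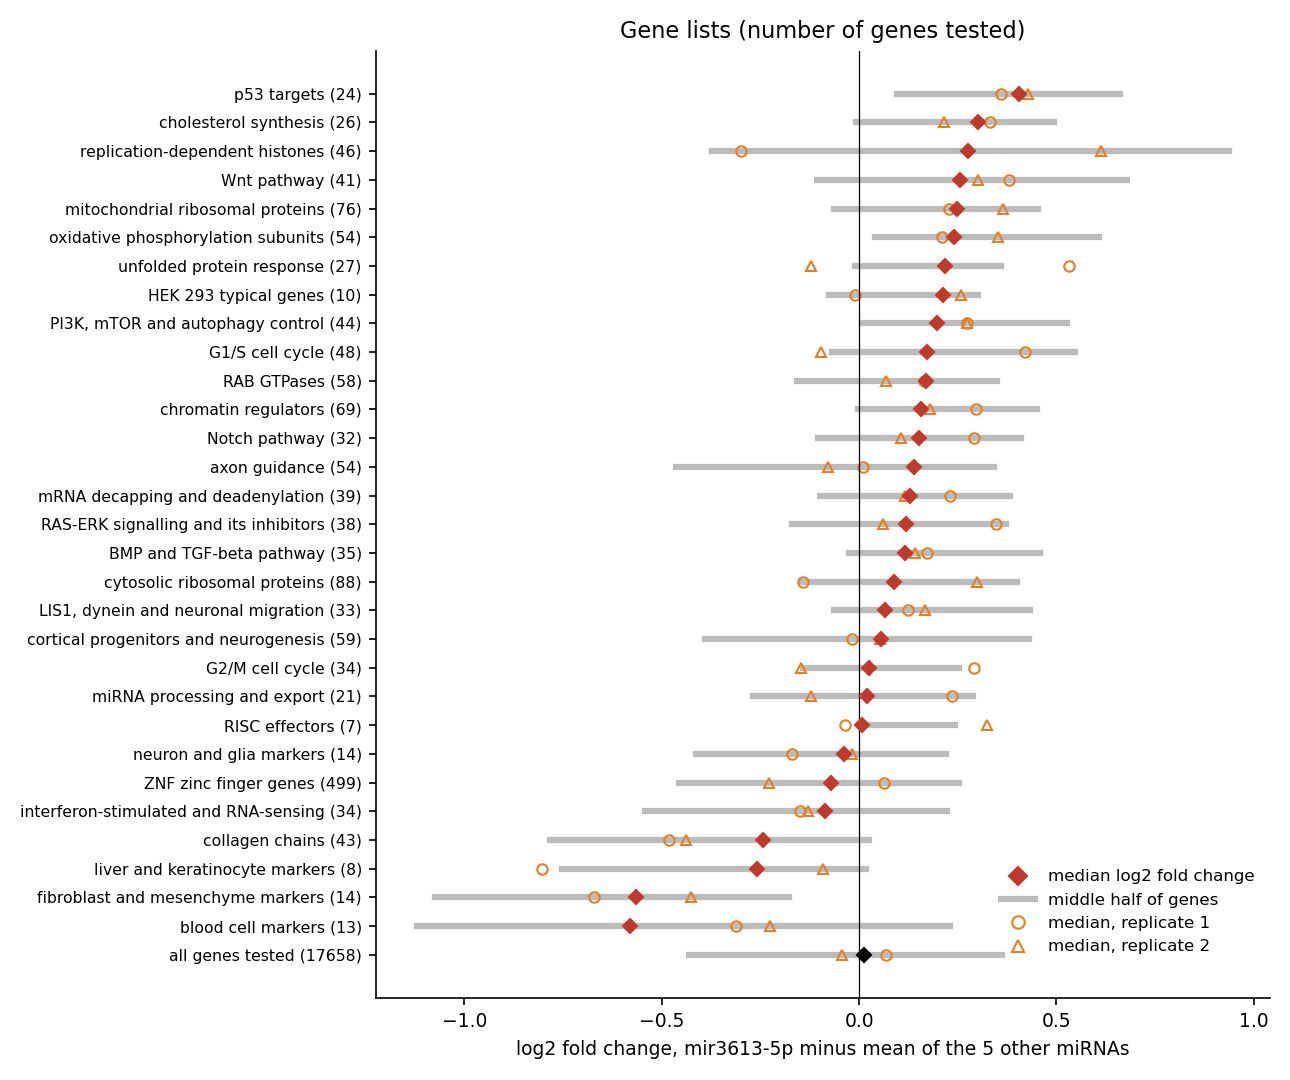
Median log2 fold change of each of the 30 gene lists (rows) and of all genes tested, with the quartiles of its members as bars and the medians of the 2 mir3613-5p libraries as separate points. Most medians lie between -0.3 and 0.4, and the markers of blood cells and fibroblasts lie lowest.

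Just outside the threshold, 21 genes had an adjusted p from 0.05 to 0.1, of which 20 were above the others and 1 below. They are named here after their values were seen. THOC5, a subunit of the mRNA export complex THO, was at 112 and 130.1 CPM with mir3613-5p, against 18.6 to 72.5 CPM (log2 fold change 1.58, adjusted p = 0.0515, edgeR). CACNA2D3, a subunit of voltage-gated calcium channels, was at 49.3 and 41.7 CPM with mir3613-5p, against 6.31 to 27.8 CPM (1.60, adjusted p = 0.0515). In both, all 10 other libraries lay below both mir3613-5p libraries. PDXP, the pyridoxal phosphatase, was at 544 and 620 CPM with mir3613-5p, against 108 to 381 CPM (1.30, adjusted p = 0.0812). TRIM71, which binds and silences mRNAs in stem cells, was at 34.8 and 41.7 CPM with mir3613-5p, against 7.51 to 19.8 CPM (1.5, adjusted p = 0.0979).

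The gene below was CD5, a surface receptor of T cells. It was at 0.707 and 0.808 CPM with mir3613-5p, against 1.22 to 197 CPM (log2 fold change -4.28, adjusted p = 0.0979, edgeR). The range of the others came from mir1180-3p and mir1301-3p, whose 4 libraries held 32.0 to 197 CPM, while the other 6 stayed at or below 7.83 CPM. DESeq2 called CD5 lower, with an adjusted p of 0.00278, together with 31 other genes. For 20 of its 32 lower calls both mir3613-5p libraries lay below all 10 others, an ordering found for 2.32% of all genes tested. The 32 were selected by a test on these same values, so the ordering is no separate support for them. Of the 32, ABHD10 and GTF3A are named here after their values were seen, and edgeR called neither (adjusted p = 0.218 and 0.151, edgeR). ABHD10, a mitochondrial hydrolase, was one of the 20, at 49.1 and 61.5 CPM with mir3613-5p, against 74.4 to 156 CPM (DESeq2 log2 fold change -0.97). GTF3A, the transcription factor of 5S ribosomal RNA genes, was another DESeq2 call whose range overlapped, at 297 and 341 CPM with mir3613-5p, against 257 to 3669 CPM (-1.30). The top of that range was mir1180-3p alone, at 3669 and 3134 CPM, while the libraries of the other miRNAs stayed at or below 1002 CPM.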

How the data were processed

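Gene-level read counts of 12 RISC trap libraries were taken from the table deposited by the authors. Per the labels' protocols, RNA was extracted with Trizol and libraries were made with the SOLiD Total RNA-seq kit. Per the submitters' processing notes, reads were mapped with TopHat2 to hg19. With the counting tool, strand setting and annotation release not given in the sources used here, overlapping and antisense genes could not be told apart. The deposited counts of 19077 genes were used as given; 18560 accessions matched a current symbol in RefSeq (GRCh38.p14), used for names only. Members and gene lists were chosen with earlier results of these data known.

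Genes were filtered with filterByExpr (17658 tested) and fitted with edgeR 4.0.16 in R 4.3.3 (TMM scaling, robust quasi-likelihood, 1 mean per miRNA). The contrast was mir3613-5p minus the mean of the 5 other miRNA means, at a Benjamini-Hochberg adjusted p under 0.05. The biological coefficient of variation was 0.350. A gene was named if it was called, averaged at least 5 CPM and had both mir3613-5p libraries beyond all 10 others, by size of change (12 genes), with silencing complex genes added; others are marked as named after their values were seen. The text gives current symbols for AGO1 to AGO4 (EIF2C1 to EIF2C4 in the table). Tested on simulated data of 17312 genes for this contrast, the fit recovered 87% of 100 genes changed 4-fold and 18% of 100 changed 2-fold, and 6.25% of 112 calls were false. The simulated counts were drawn independently, with the same mean for all 5 other miRNAs, and only genes averaging at least 5 CPM were changed. The real libraries correlated across miRNAs, and the other miRNAs differed from each other, so these rates may not hold for them. The alternatives were DESeq2 1.42.0, other scalings and filters, each library or miRNA left out, other references and the replicate number as a block. Replicate numbers were not taken to pair libraries: same-numbered deviations correlated at -0.14 to 0.36 over 15 pairs of miRNAs, 6 of them over 0.1. Yet for 9 of 12 libraries the best match in another miRNA had the same number, so a pairing remains possible. With the replicate number as a block, 12 of the 16 calls were kept. Matches of the seed in transcripts were not analysed here.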

Additional observations from a re-analysis of the deposited data

How the results depend on the processing

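All 16 genes kept a positive log2 fold change under all 31 alternatives, apart from PCDHB14 and TSPAN8, which a minimum of 5 CPM left untested. This sign largely follows from choosing the genes as higher in the same libraries. The number of genes called was 16 higher and 0 lower with all 12 libraries (edgeR). It was 9 higher after upper-quartile scaling, and 88 higher and 32 lower with DESeq2. With a mean of at least 5 CPM, 7 of 11622 genes tested were higher. All 7 were among the 16, of which 14 were still tested. Leaving out a whole miRNA gave 9 higher without mir550-3p, 1 lower without mir1260a-5p and 2 lower without mir1271-5p. Against mir1180-3p, mir1260a-5p and mir1271-5p together 7 were higher, and against mir1301-3p and mir550-3p together 53 higher and 9 lower. Against 1 miRNA they were 64 and 142 (mir1180-3p), 1 and 2 (mir1260a-5p), 0 and 1 (mir1271-5p), 413 and 705 (mir1301-3p), and 19 and 8 (mir550-3p). Without mir1271-5p replicate 1 and mir1260a-5p replicate 2 together, chosen after seeing the data, 25 were higher and 3 lower. Leaving out 1 library gave 8 to 38 higher and 0 to 2 lower. The counts that moved by over 1.5 times were 8 higher without mir3613-5p replicate 1, 9 without mir1180-3p replicate 2, 38 without mir1260a-5p replicate 2, 27 without mir1271-5p replicate 2, 38 without mir1301-3p replicate 2 (1 lower) and 9 without mir550-3p replicate 2, and 2 lower without mir1271-5p replicate 1. With the replicate number as a block 12 were higher and 0 lower, 12 of the 16 among them but not GPR35, TSPAN8, TRIM58 and GATA2; in 9 of 12 libraries the best match in another miRNA had the same number. The cause of these differences was not tested. The planned counts of seed matches were not run. With 2 libraries of mir3613-5p, 2-fold changes were mostly missed in simulated data.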
